A study of Mus musculus with 9 samples.

Results

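The vacuolar proton pump was examined in periprostatic fat, the adipose depot beside the prostate, through 10 of its genes: Atp6v0d2, Atp6v0d1, Atp6v0a1, Atp6v0a2, Atp6v0e2, Atp6v1a, Atp6v1b2, Atp6v1c1, Atp6v1h and Atp6ap1. All 10 were among the 22180 genes that a probe set with a single gene symbol measured, and for a gene with several such probe sets the brightest over the 9 arrays was used. The genes were chosen by their place in the pump, with the diet differences in log2 expression of these same arrays already known. Their diet differences are therefore given as a description, with no p-value, and are no independent evidence of a response of the pump. The other subunits and gene lists below were likewise chosen with earlier results of these data known. Their p-values are given, but they are no independent evidence either.

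The mice were male C57BL/6J (strain C57BL/6 in the sample labels), and the labels name no allele or agent beyond the diet. The high fat group was 5 mice on a diet with 60% of its energy from fat, and the low fat group was 4 mice on a diet with 10%. Feeding ran for 12 weeks from 6 weeks of age, and the fat was taken at 18 weeks. Each array carried the total RNA of a single mouse, and the values are log2 expression, in which a difference of 1 is a doubling.

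The vacuolar ATPase is a rotary machine that spends ATP to move protons into lysosomes, endosomes and other compartments, or out of specialised cells. Its cytosolic sector, called V1, holds the A and B subunits that split ATP, and its membrane sector, called V0, holds a ring of small c subunits and the large a subunit through which protons pass. Many subunits come as isoforms from separate genes, some made in nearly all cells and some in few, such as osteoclasts, macrophages and the acid-secreting cells of kidney and epididymis. In adipose tissue, lysosomes are abundant in macrophages that take up lipid, and acidification is needed for lysosomal acid lipase and the cathepsins to work.

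As a check on the tissue, the mean of 9 adipocyte genes lay between 12.0 and 12.4 on all arrays, and that of 8 prostate and seminal vesicle genes between 5.18 and 5.28. Skeletal muscle genes (8 measured) averaged 8.55 in high fat mouse 1 and 7.29 in low fat mouse 4, against 6.32 to 6.48 on the other arrays. Smooth muscle genes (8 measured) averaged 10.5 in low fat mouse 2 and 8.53 to 8.94 elsewhere. T and B cell genes (7 measured) averaged 7.16 to 7.89 in high fat mice and 7.79 to 8.58 in low fat mice. The arrays of high fat mice 1 and 2 also had the widest spread of values, with an SD of 1.87 over all rows against 1.83 to 1.84 on the others.

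Of the 10 pump genes, 6 were higher in the high fat group, 1 was lower and 3 did not pass the threshold, by limma at a Benjamini-Hochberg adjusted p of 0.05 over all genes. In the same fit 12.4% of all genes were higher and 9.13% lower, 2742 and 2026 genes. Scaling shifted that balance: a repeated quantile normalization gave 2320 higher and 2771 lower genes, and subtracting the array medians gave 2227 and 3056. The high fat arrays lay wholly above the low fat arrays in the same number of pump genes, 6, against 11.6% of all genes, and wholly below in 1, against 9.15%. In either direction 7 of the 10 did not overlap, against 20.7% of all genes, and 7 passed the threshold, against 21.5%. The median difference of the 10 genes was 0.42, and that of all genes was -0.001. Because the genes were chosen with these differences in view, nothing is read from these counts.

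**Figure D1:**
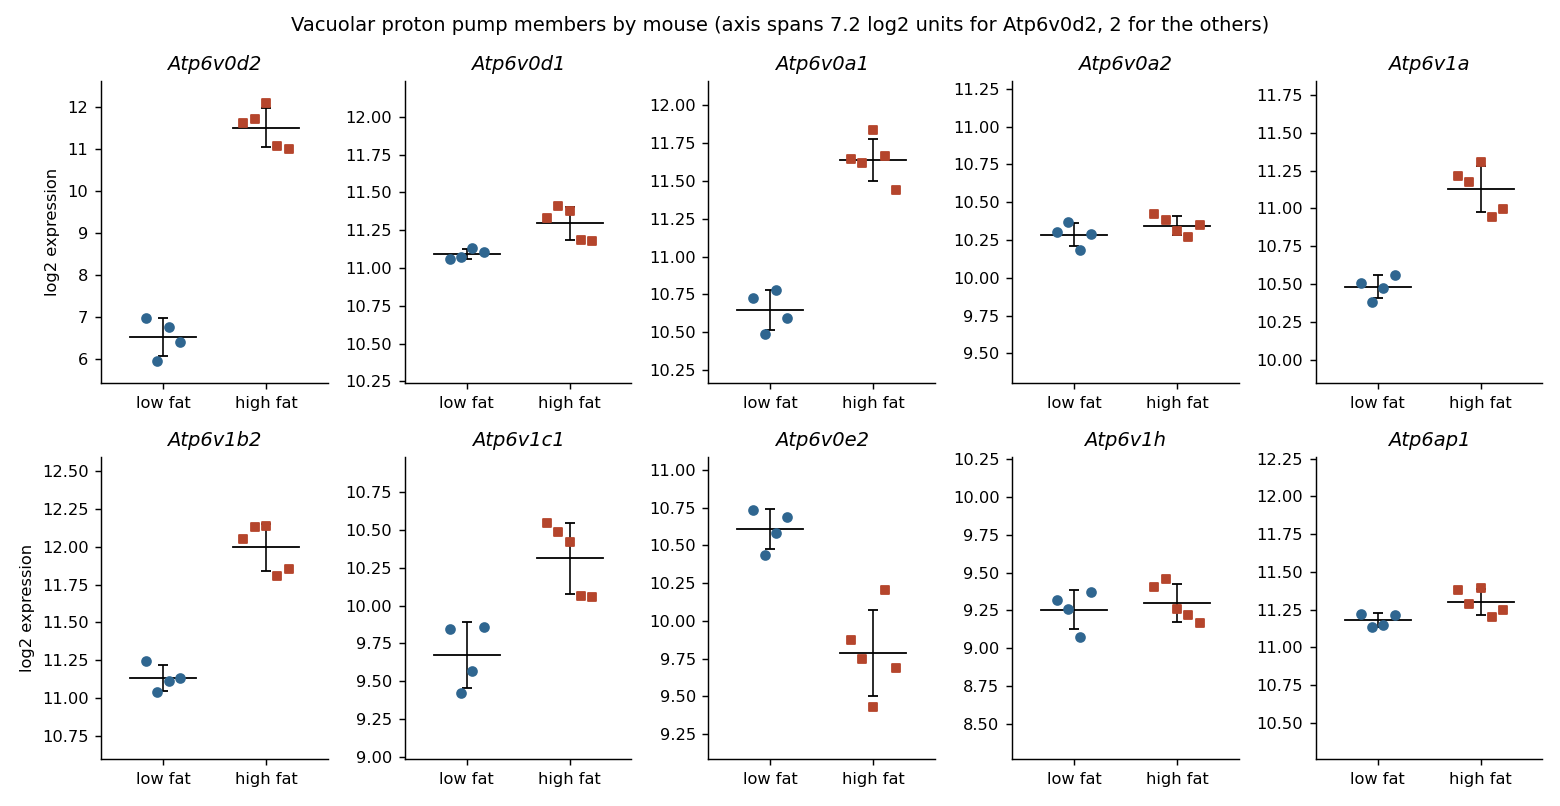
Log2 expression of the 10 pump genes, 1 point per mouse in order of mouse number (circles, 4 low fat mice; squares, 5 high fat mice), with the group mean and SD as lines and bars. Atp6v0d2 runs from 5.95 to 6.99 in low fat mice and from 11.01 to 12.11 in high fat mice, and Atp6v0e2 is the gene whose high fat values lie below the low fat values.

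The d subunit sits as a stalk on the ring of V0, and its isoforms are d1, made in most tissues, and d2, known from osteoclasts, macrophages and renal and epididymal cells. Atp6v0d2 (probe set 17423577) measured 11.64, 11.72, 12.11, 11.08 and 11.01 in high fat mice 1 to 5 and 6.99, 5.95, 6.78 and 6.40 in low fat mice 1 to 4. The lowest high fat array lay 4.02 above the highest low fat array. The difference of Atp6v0d2 was 4.98 ± 0.26 (SE), or 31.7-fold, the largest increase of all 22180 genes. Its low fat mean of 6.53 ± 0.46 (SD, n = 4) lay close to the array medians of 6.45 to 6.50, and no detection calls were used. Whether that mean was above background was not determined, so the fold holds for the deposited values only.

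Atp6v0d1 (probe set 17512456) measured 11.33, 11.41, 11.38, 11.19 and 11.18 in high fat mice 1 to 5 and 11.06, 11.07, 11.13 and 11.11 in low fat mice 1 to 4. The groups of this gene did not overlap, but only 0.04 separated them, and high fat mice 4 and 5 lay nearest to the low fat range. Its difference was 0.20 ± 0.06 (SE), or 1.15-fold. Atp6v0d1 dropped out of the count of pump genes past the threshold in 9 of 19 alternative fits, including arrays centred on their medians (difference 0.16) and the fit without high fat mouse 1, 2 or 3 or low fat mouse 1, 2 or 4 (0.17 to 0.21).

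The a subunit holds the channels for protons and anchors the pump in a given membrane. Its a1 isoform is best known from neurons and endosomes, a2 from the Golgi and early endosomes, and a3, encoded by Tcirg1, from lysosomes and the osteoclast surface. Atp6v0a1 (probe set 17256473) measured 11.64, 11.62, 11.84, 11.66 and 11.44 in high fat mice 1 to 5 and 10.72, 10.49, 10.78 and 10.60 in low fat mice 1 to 4. The groups were separated by 0.66, and the difference of 0.99 ± 0.08 (SE) was 1.99-fold. Atp6v0a2 (probe set 17442588) measured 10.42, 10.38, 10.31, 10.27 and 10.35 against 10.30, 10.37, 10.18 and 10.29. The ranges of Atp6v0a2 overlapped and the difference was 0.06 ± 0.05 (SE).

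Tcirg1 (probe set 17361008), which was not among the 10 genes, measured 10.54, 10.80, 10.89, 10.32 and 10.37 in high fat mice 1 to 5 and 9.59, 9.43, 9.35 and 9.28 in low fat mice 1 to 4. It rose 2.25-fold, with a difference of 1.17 ± 0.12 (SE) and a limma adjusted p of 0.000193 over all genes, and it was higher in 5 of 5 high fat mice than in any low fat mouse. Tcirg1 passed in all 19 alternative fits, with adjusted p from 9.59e-05 to 0.0186. Atp6v0a4, the a4 isoform of kidney and epididymis, stood at 6.01 ± 0.21 (SD, n = 5) against 5.79 ± 0.23 (SD, n = 4), below the medians of the arrays. Its difference of 0.22 ± 0.13 (SE) did not pass (limma adjusted p = 0.288).

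The e subunit is a very small membrane protein of V0 whose e2 isoform is richest in brain. Atp6v0e2 (probe set 17458308) measured 9.87, 9.75, 9.43, 10.21 and 9.69 in high fat mice 1 to 5 and 10.74, 10.44, 10.58 and 10.69 in low fat mice 1 to 4. It was the pump gene with the opposite direction, lying lower in every high fat mouse, with high fat mouse 4 nearest to the low fat range and high fat mouse 3 farthest. The difference was -0.82 ± 0.13 (SE), or 1.76-fold lower in high fat mice. Its widely made partner Atp6v0e was at 11.71 ± 0.05 (SD, n = 5) against 11.54 ± 0.10 (SD, n = 4). The difference of Atp6v0e, 0.17 ± 0.05 (SE), had a limma adjusted p of 0.0416, its groups overlapped, and it passed in 4 of 19 alternative fits, with adjusted p from 0.0182 to 0.21.

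Among the ring subunits, Atp6v0b, the c'' proteolipid, rose 1.34-fold, at 11.00, 11.11, 11.13, 10.76 and 10.84 in high fat mice 1 to 5 and 10.53, 10.56, 10.53 and 10.55 in low fat mice. Its difference was 0.42 ± 0.08 (SE) with a limma adjusted p of 0.00334, and all 5 high fat mice lay above all low fat mice. It passed in 18 of 19 alternative fits (adjusted p 0.00113 to 0.0727), the exception being the fit without high fat mouse 1 and low fat mice 2 and 4, the arrays with muscle genes, where the difference was 0.43. That fit keeps only low fat mice 1 and 3 in the low fat group. It gave 1223 higher and 947 lower genes of all, against 2742 and 2026 with every array. The expression of Atp6v0c, the main ring subunit, was not analysed here.

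**Figure D2:**
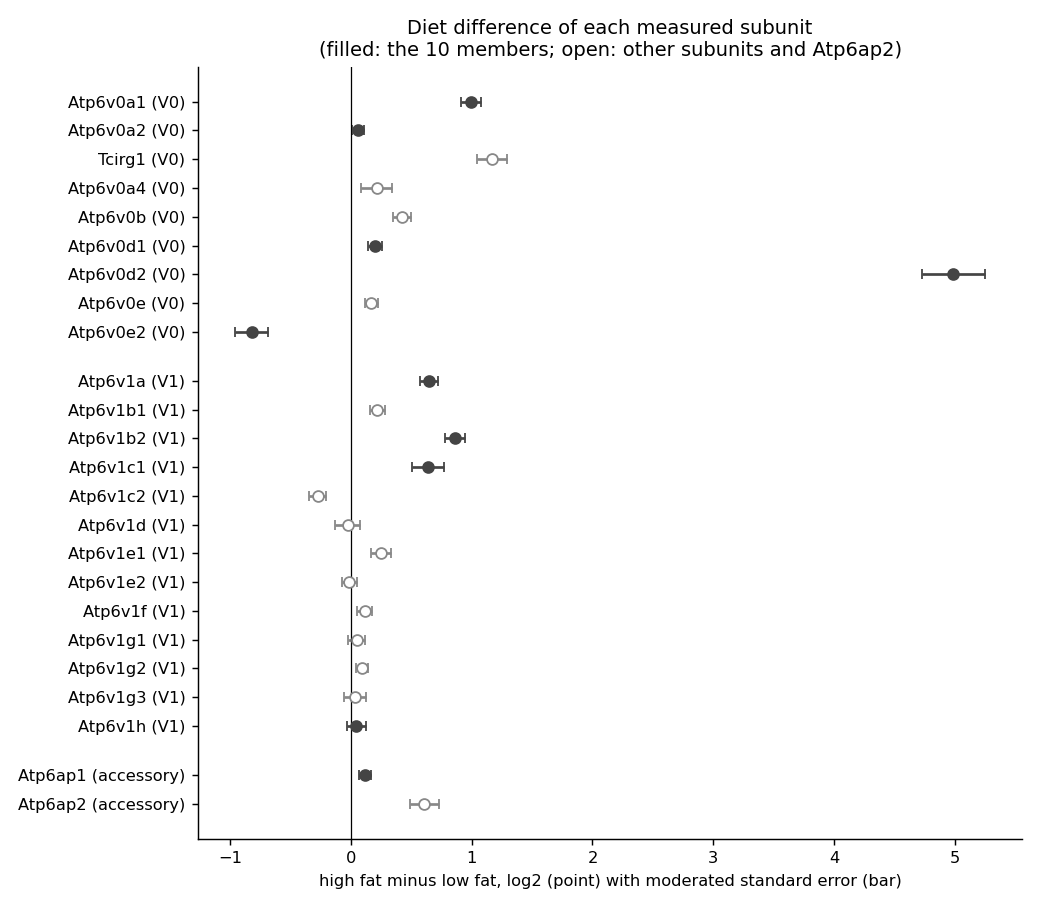
Difference between diets (high fat minus low fat, log2) with the moderated standard error for each measured subunit, in the V0 sector, the V1 sector and the accessory proteins; filled points are the 10 pump genes and open points the others. Atp6v0d2 stands at 4.98, Tcirg1 at 1.17, Atp6v0a1 at 0.99, Atp6v0e2 at -0.82, and most V1 subunits other than A, B2 and C1 lie close to 0.

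In the V1 sector, the A subunit is the one that splits ATP and the B subunit completes the catalytic head. Atp6v1a (probe set 17330523) measured 11.21, 11.17, 11.31, 10.95 and 11.00 in high fat mice 1 to 5 and 10.51, 10.38, 10.48 and 10.56 in low fat mice 1 to 4. The groups lay 0.38 apart and the difference of 0.65 ± 0.08 (SE) was 1.57-fold. Atp6v1b2 (probe set 17501652), the widely made B isoform, measured 12.05, 12.13, 12.14, 11.81 and 11.85 against 11.25, 11.04, 11.12 and 11.13. It was 1.82-fold higher, by 0.86 ± 0.08 (SE), with 0.56 between the groups. A dimmer probe set for Atp6v1b2 (17548677) pointed the same way, with a difference of 0.55. Of the other subunits, Atp6v1g1 had 2 dimmer probe sets, and these differed by -0.06 and -0.10, opposite in sign to the 0.05 of the brightest.

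The C subunit is the one that detaches when the pump comes apart and V1 leaves the membrane, and the H subunit keeps free V1 from splitting ATP. Atp6v1c1 (probe set 17311157) measured 10.54, 10.48, 10.42, 10.06 and 10.06 in high fat mice 1 to 5 and 9.85, 9.42, 9.56 and 9.86 in low fat mice 1 to 4. High fat mice 4 and 5 lay 0.20 above the highest low fat mouse, and the difference was 0.64 ± 0.13 (SE), or 1.56-fold. Without the 3 arrays that carried muscle genes Atp6v1c1 was at 0.55 and no longer counted as past the threshold. Atp6v1h (probe set 17210887) measured 9.40, 9.46, 9.26, 9.22 and 9.16 against 9.32, 9.26, 9.07 and 9.37. These ranges overlapped, with a difference of 0.05 ± 0.08 (SE) whose sign turned to -0.01 without low fat mouse 3 and to -0.04 without high fat mice 1 and 2.

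Of the 9 other V1 genes measured, 1 rose, 1 fell and 7 did not pass, with a median difference of 0.05. In the same fit 12.4% of all genes rose and 9.13% fell, so 1 of 9 in each direction lay near those shares. Atp6v1b1, the B isoform of acid-secreting epithelia, averaged 6.47 ± 0.05 (SD, n = 5) on the high fat arrays against 6.25 ± 0.14 (SD, n = 4), a rise of 0.22 ± 0.06 (SE) at limma adjusted p = 0.0334. Atp6v1c2, a C isoform of kidney and lung, fell by 0.27 ± 0.07 (SE), to 6.15 ± 0.08 (SD, n = 5) from 6.42 ± 0.15 (SD, n = 4), at limma adjusted p = 0.0242. Both genes lay at or below the array medians. Atp6v1b1 passed in 7 of 18 alternative fits (adjusted p 0.019 to 0.129, difference 0.18 without low fat mouse 3 or 4) and Atp6v1c2 in 12 of 18 (0.00551 to 0.0807, difference -0.21 without low fat mouse 3).

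The subunits of the stalks, which join the catalytic head to the membrane sector, showed small differences. Atp6v1e1, the widely made E isoform, differed by 0.25 ± 0.08 (SE; limma adjusted p = 0.0603), just outside the threshold, and passed in 4 of 19 alternative fits. Atp6v1f differed by 0.11 ± 0.06, Atp6v1g1 by 0.05 ± 0.07, Atp6v1g2 by 0.09 ± 0.05, Atp6v1g3 by 0.03 ± 0.09, Atp6v1d by -0.02 ± 0.10 and Atp6v1e2 by -0.01 ± 0.06 (difference ± SE). None of these 6 passed limma (adjusted p 0.255 to 0.93), and their intervals do not show that the diets were alike. In V0, 3 of the 4 other genes measured rose and 0 fell, with 0 lower at an unadjusted p of 0.05 as well. The shares of all genes were 12.4% higher and 9.13% lower.

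Choice between isoforms was followed as the change of the ratio of isoform signals within each mouse. Signals of different probe sets cannot be set against each other as amounts, so each ratio is given relative to its low fat mean. The ratio of Atp6v0d2 to Atp6v0d1 lay 4.87, 4.88, 5.30, 4.46 and 4.40 log2 units above that mean in high fat mice 1 to 5, with low fat mice 1 to 4 at 0.49, -0.56, 0.21 and -0.14. The change was 4.78 ± 0.28 (SE), or 27.5-fold in favour of d2, and 5 of 5 high fat mice lay beyond the low fat range.

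Among the a isoforms, the ratio of Atp6v0a1 to Atp6v0a2 was 0.86, 0.87, 1.17, 1.03 and 0.73 above its low fat mean in high fat mice 1 to 5, while low fat mice lay between -0.24 and 0.24. This was a change of 0.93 ± 0.13 (SE), or 1.91-fold towards a1. The ratio of Tcirg1 to Atp6v0a2 moved by 1.11 ± 0.13 (SE), also with no overlap. Between Tcirg1 and Atp6v0a1 the ratio changed by 0.18 ± 0.12 (SE), and the diets overlapped, with high fat mouse 4 at -0.11 and low fat mouse 2 at 0.18. Both a1 and a3 were higher relative to a2, while their own ratio did not separate the diets.

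For the e subunit the ratio of Atp6v0e2 to Atp6v0e was -0.85, -1.08, -1.40, -0.57 and -1.05 in high fat mice 1 to 5 relative to the low fat mean, and the low fat mice lay between -0.20 and 0.19. The change of -0.99 ± 0.17 (SE) was 1.99-fold away from e2. The ratio of Atp6v1b2 to Atp6v1b1 lay above its low fat mean by 0.43 to 0.86 in the 5 high fat mice, a change of 0.64 ± 0.12 (SE). That of Atp6v1c1 to Atp6v1c2 lay 0.73 to 1.14 above, a change of 0.92 ± 0.13 (SE). In both ratios the diets did not overlap, and the second isoform of each lay at or below the array medians.

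Ratios between isoforms that were both outside the 10 genes were tested with a two-sided exact permutation test that enumerated each way of labelling 5 of the 9 mice as high fat, adjusted over 5 such pairs. The smallest p this design allows is 0.0159. The genes of these pairs were also chosen with earlier results of these data known, so these p-values are no independent evidence. The ratio of Tcirg1 to Atp6v0a4 changed by 0.95 ± 0.18 (SE), higher in 5 of 5 high fat mice, at that smallest exact p and an adjusted p of 0.0794. With 5 pairs adjusted together, a pair that alone reaches the smallest p cannot fall below that adjusted value, so its not passing says nothing of the size of the change. The ratio of Atp6v1e1 to Atp6v1e2 changed by 0.26 ± 0.11 (exact p = 0.0476, adjusted p = 0.119) and the 3 ratios among Atp6v1g1, Atp6v1g2 and Atp6v1g3 by -0.05 ± 0.06 to 0.06 ± 0.14 (exact p from 0.524 to 0.968).

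**Figure D3:**
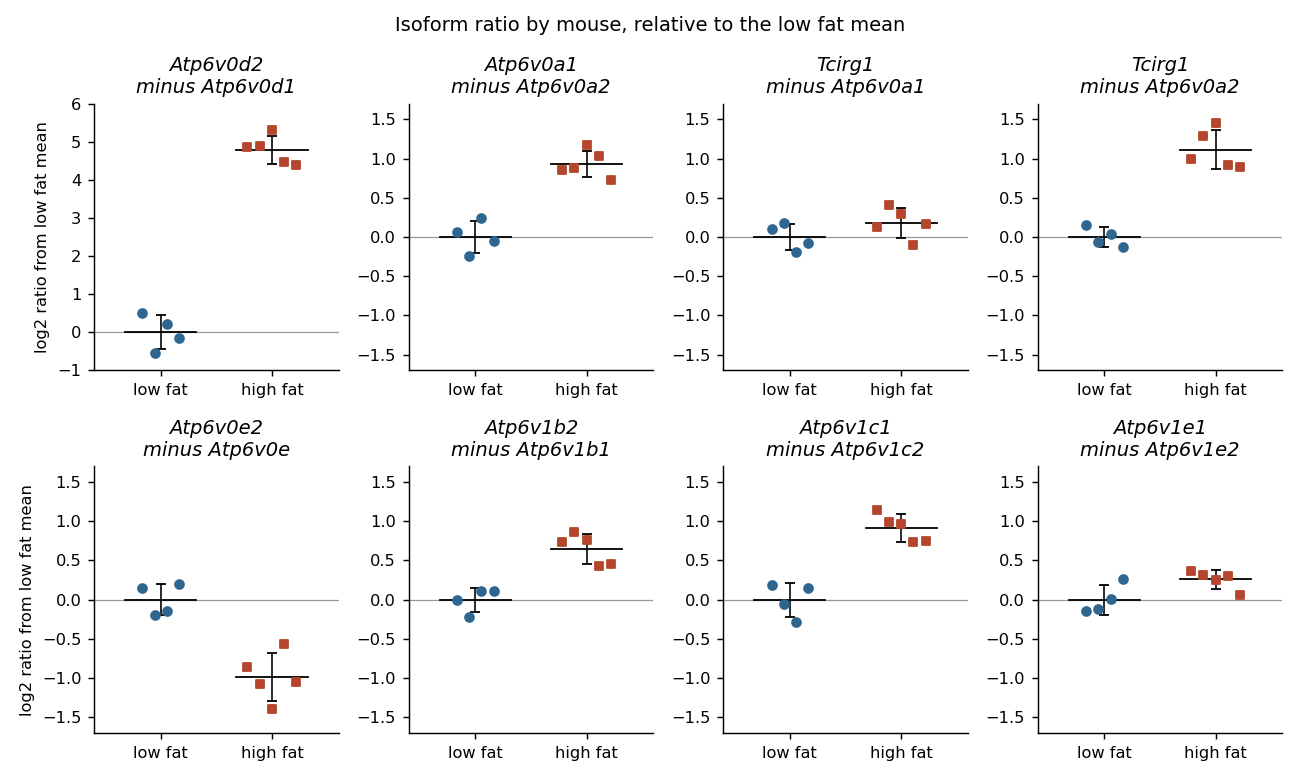
Log2 ratio of isoform signals within each mouse, relative to the mean of the low fat mice (circles, 4 low fat mice; squares, 5 high fat mice, in order of mouse number; lines and bars, mean and SD). The d2 to d1 ratio lies 4.40 to 5.30 above 0 in high fat mice, the e2 to e ratio lies 0.57 to 1.40 below it, and the ratio of Tcirg1 to Atp6v0a1 overlaps between diets.

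Accessory proteins and assembly factors help build the pump and regulate the joining of its sectors. Atp6ap1 (probe set 17535792), the accessory glycoprotein Ac45, measured 11.38, 11.29, 11.39, 11.20 and 11.24 in high fat mice 1 to 5 and 11.22, 11.13, 11.15 and 11.22 in low fat mice 1 to 4. Its groups overlapped narrowly, through high fat mouse 4, and the difference was 0.12 ± 0.05 (SE). Atp6ap2, the other accessory membrane protein, also called the prorenin receptor, rose 1.52-fold (difference 0.61 ± 0.12 SE, limma adjusted p = 0.0052), and its groups did not overlap.

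Of 14 accessory and assembly genes other than Atp6ap1, 5 rose, 1 fell and 8 did not pass, with a median difference of 0.14. Among all genes 12.4% rose and 9.13% fell. Besides Atp6ap2 the genes that rose were Tmem9b (0.32), Wdr7 of the rabconnectin complex (0.22), the assembly factor gene Ccdc115 (0.22) and Ncoa7, which binds the pump (0.16), with limma adjusted p from 0.00255 to 0.0329. In alternative fits, of which there were 19, Ccdc115 passed in 7, Wdr7 in 11 and Ncoa7 in 13. The count of 5 fell to 2 with arrays centred. It fell to 1 without the arrays with muscle genes, which leaves only low fat mice 1 and 3. Without low fat mouse 4 alone it was 2, and without high fat mouse 1, 2 or 3 or low fat mouse 3 it was 3. Rogdi, a partner of the rabconnectin proteins, fell by 0.35 ± 0.05 (SE), to 8.67 ± 0.10 (SD, n = 5) from 9.02 ± 0.05 (SD, n = 4), with a limma adjusted p of 0.00149 and no overlap between diets. The direction of Rogdi was that of Atp6v0e2.

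Transcription factors of the Mitf and Tfeb family bind a palindrome in promoters of many lysosomal and pump genes, and the Rag and Ragulator proteins on the lysosome control them. In a list of 16 such regulators, 7 rose and 0 fell, with 0 lower at an unadjusted p of 0.05, and the median difference was 0.20. Among all genes 12.4% rose and 9.13% fell. All 4 family members rose by limma, with the same direction in every alternative fit: Tfec by 0.97 ± 0.18 (SE), Mitf by 0.55 ± 0.09, Tfe3 by 0.27 ± 0.07 and Tfeb by 0.24 ± 0.07, with adjusted p of 0.00336, 0.00218, 0.0167 and 0.0362. The others were Fnip2, a partner of folliculin (1.18 ± 0.14, limma adjusted p = 0.00029), the Ragulator gene Lamtor3 (0.37 ± 0.06, adjusted p = 0.00175) and the Rag gene Rragd (0.52 ± 0.16, adjusted p = 0.0487). Tfeb passed in 8 of 18 alternative fits and Rragd in 5 of 18, and the count of 7 ran from 3, without the arrays with muscle genes, to 8.

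Promoter sequence was available for 5 of the 10 pump genes in the RefSeq table of assembly GRCm38.p6, Atp6v0d1, Atp6v0a1, Atp6v1a, Atp6v0e2 and Atp6ap1, and for 13 of 14 other subunit genes, Atp6v0c included. The window searched ran from 250 bases before to 50 after each start, on both strands, for TCACGTGA, the inner letters of the CLEAR palindrome bound by Tfeb, for the E-box core CACGTG that it contains, for the M-box core TCATGTG and for the AP-1 site TGANTCA. TCACGTGA was found in the windows of Atp6v0d1 and Atp6v1a, 2 of 5 pump genes, and in that of Atp6v0e, against 0.974% of all 32851 windows. The plain core CACGTG was found in no further pump gene but in the window of Atp6v0b at 2 places, against 7.15% of all windows. TGANTCA, in which N stands for any base, was found as TGATTCA in that of Atp6v0a1 (7.81% of all windows). TCATGTG was found in 1 of the windows of Atp6v0c (3.77% of all windows). A match is a description of the letters and was not tested as a binding site.

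The sequences below set the pump genes that carry the palindrome beside a gene with a match to TGANTCA and the gene with the opposite direction. That last gene, Atp6v0e2, holds none of the 4 motifs. Atp6ap1, whose sequence is not shown, holds none of them either, and its difference was 0.12. A link between motifs and direction was not tested. Each runs 5′ to 3′ on the gene's strand from 250 bases before to 10 bases after the start, and capitals mark a motif.
Atp6v0d1, chr8:105566055-105566314, - strand: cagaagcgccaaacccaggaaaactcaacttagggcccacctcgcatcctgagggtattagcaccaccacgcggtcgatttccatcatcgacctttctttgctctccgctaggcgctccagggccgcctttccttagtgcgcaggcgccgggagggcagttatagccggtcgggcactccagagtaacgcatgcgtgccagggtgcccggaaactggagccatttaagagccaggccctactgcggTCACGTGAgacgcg
Atp6v1a, chr16:44139250-44139509, - strand: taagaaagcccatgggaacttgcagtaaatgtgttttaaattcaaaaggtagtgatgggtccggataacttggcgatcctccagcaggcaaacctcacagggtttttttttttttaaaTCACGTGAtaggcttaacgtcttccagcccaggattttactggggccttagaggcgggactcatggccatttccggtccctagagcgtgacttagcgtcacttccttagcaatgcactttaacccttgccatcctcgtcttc
Atp6v0a1, chr11:101010148-101010407, + strand: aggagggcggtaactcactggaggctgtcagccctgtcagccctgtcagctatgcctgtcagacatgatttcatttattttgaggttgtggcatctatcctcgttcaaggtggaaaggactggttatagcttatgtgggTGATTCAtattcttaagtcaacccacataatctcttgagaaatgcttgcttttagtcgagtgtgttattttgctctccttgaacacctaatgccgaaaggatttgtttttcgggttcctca
Atp6v0e2, chr6:48537319-48537578, + strand: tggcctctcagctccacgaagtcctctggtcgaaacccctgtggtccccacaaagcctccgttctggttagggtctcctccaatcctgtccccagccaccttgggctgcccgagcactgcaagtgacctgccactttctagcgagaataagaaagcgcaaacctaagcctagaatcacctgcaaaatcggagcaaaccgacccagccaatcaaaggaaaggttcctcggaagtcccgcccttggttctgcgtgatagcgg

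The palindrome of Atp6v0d1 begins 4 bases before the start and that of Atp6v1a 132 bases before it. The differences of these genes were 0.20 and 0.65, and any part of the palindrome in them was not tested. For comparison, the last 50 bases before and first 10 after the start are shown for the V0 genes Atp6v0e and Atp6v0b, which differed by 0.17 and 0.42.
Atp6v0e, chr17:26676346-26676405, + strand: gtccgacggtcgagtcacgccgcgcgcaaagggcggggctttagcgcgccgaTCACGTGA
Atp6v0b, chr4:117887320-117887379, - strand: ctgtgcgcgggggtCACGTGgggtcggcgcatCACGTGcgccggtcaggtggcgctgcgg

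Macrophage markers moved with most of the pump genes. The mean of 9 osteoclast genes also lay higher in every high fat mouse, at 8.10 to 8.33 against 7.82 to 7.93. So did that of 6 neuron and Schwann cell genes (6.38 to 6.49 against 6.07 to 6.29), of which 2 rose and 0 fell by limma. The mean of 6 neutrophil genes did too (6.41 to 6.69 against 6.27 to 6.38), with 1 higher and 1 lower. Those of the adipocyte and proton-secreting epithelium lists, given further on, did not. In these bulk samples a change in the number of cells of a type and a change in RNA per cell cannot be told apart. Of 12 macrophage genes, 11 were higher in high fat mice and 1, Mertk, was lower by limma, and their mean was 10.6, 10.8, 10.9, 10.3 and 10.5 in high fat mice 1 to 5 against 9.45 to 9.75 in low fat mice. Mertk passed in 9 of 19 alternative fits and in 2 of 9 that left out 1 mouse (adjusted p 0.0103 to 0.282), and Itgam, among the 11, passed in 7 of 19 (0.00981 to 0.363). Of 8 genes of lipid-associated macrophages, 6 were higher, with a mean of 10.9 to 11.5 against 8.88 to 9.47. In the same fit 12.4% of all genes were higher and 9.13% lower. High fat mice 1, 2 and 3 had the highest means of both lists. Within the high fat group these mice also had the highest values of 7 of the 10 pump genes. The exceptions were Atp6v0a1, where high fat mouse 4 (11.66) lay above mice 1 and 2 (11.64 and 11.62), Atp6v0a2 and Atp6v0e2. The share of all genes with this order among the high fat mice was not determined, so nothing is read from that count. The part of macrophage number in the diet differences was not tested.

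**Figure D4:**
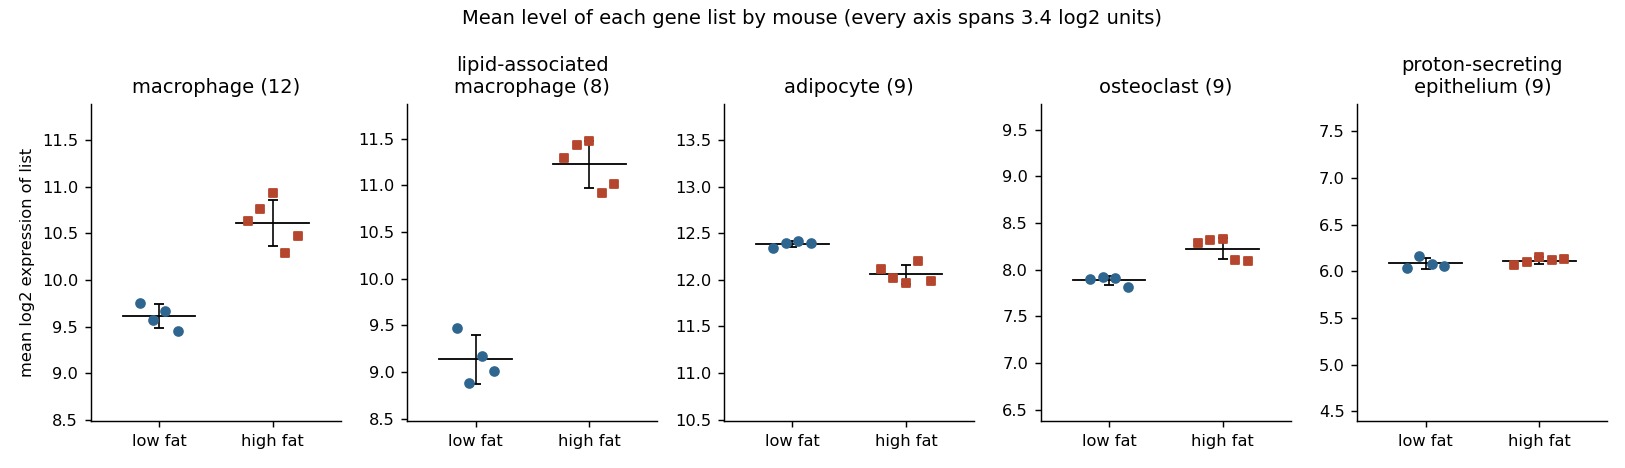
Mean log2 expression of 5 marker lists in each mouse (circles, 4 low fat mice; squares, 5 high fat mice, in order of mouse number; lines and bars, mean and SD), with the number of genes in parentheses. The macrophage lists and the osteoclast list lie higher and the adipocyte list lower in all high fat mice. The list of proton-secreting epithelium overlaps between diets.

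Adipocyte genes moved in the direction of Atp6v0e2. Of 9 measured, 8 were lower in high fat mice and 1, Lep, was higher, with a mean of 11.96 to 12.20 against 12.34 to 12.41. Among all genes 9.13% were lower and 12.4% higher. High fat mouse 4 had the highest adipocyte mean and the highest Atp6v0e2 of the high fat group, and high fat mouse 3 the lowest of both. The part of adipocyte RNA in the difference of Atp6v0e2 was not tested. Without the arrays with muscle genes 4 adipocyte genes passed as lower, and the 4 that no longer passed were at -0.39 (Retn), -0.30 (Pparg), -0.20 (Cidec) and -0.27 (Aqp7), against -0.39, -0.34, -0.23 and -0.20 with all arrays.

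Osteoclasts and acid-secreting epithelia make d2 as well, so their markers were read too. The shares of all genes to set beside the counts were 12.4% higher and 9.13% lower. Of 9 osteoclast genes, 4 were higher (Ctsk 5.93-fold, Dcstamp 2.44-fold, Tnfrsf11a 2.33-fold and Ocstamp by 0.26 on the log2 scale) and 2 lower (Mmp9 3.26-fold and Acp5 1.42-fold), while Calcr and Oscar, both below the array medians, and Nfatc1 did not pass limma. The 9 genes of intercalated and clear cells, Atp6v1b1, Atp6v0a4 and Atp6v1g3 among them, had a mean of 6.07 to 6.16 in high fat and 6.04 to 6.17 in low fat mice. In that list 2 rose, Atp6v1b1 and Car12, and 1 fell, Rhbg, and Foxi1, the factor that defines these cells, was at 6.69 ± 0.10 (SD, n = 5) against 6.66 ± 0.14 (SD, n = 4). Without the arrays with muscle genes, a fit on 6 arrays, neither passed, with Atp6v1b1 at 0.24 against 0.22 on all arrays and Car12 at 0.20 against 0.34.

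The 5 genes whose profile over the 9 arrays lay closest to that of Atp6v0d2, by root mean square distance after centring each gene on its mean and with predicted gene models left out, were Tm4sf19 (0.53 log2 units), Gpnmb (0.71), Itgad (0.75), Gpr50 (0.79) and Trem2 (0.83). The arrays of both diets enter this distance, so it includes the diet difference itself. Closest to Atp6v0d1 were Prdx2 (0.03), Bop1, Gzmk, Wnt8b and Gosr2 (0.04 each), all with differences of 0.17 to 0.20. Of these, Prdx2 and Gzmk did not pass limma (adjusted p 0.0634 and 0.106). Wnt8b, at 5.94 in high fat and 5.74 in low fat mice, lay below the array medians. The distance depends on how much a gene varies, so those to Atp6v0d1 and to Atp6v0d2 cannot be compared. Gpnmb and Trem2 also belong to the lipid-associated macrophage genes counted above.

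Neighbouring systems differed in their counts, to be set beside 12.4% of all genes that rose and 9.13% that fell. Of 11 genes for ion transport across the lysosomal membrane, 6 rose and 0 fell by limma (1 lower at an unadjusted p of 0.05), with a median difference of 0.40. Tpcn2, a lysosomal cation channel, rose 2.34-fold, Clcn5, an endosomal chloride and proton exchanger, 1.58-fold, Mcoln2 1.45-fold, and Clcn7 and Ostm1, which form the lysosomal exchanger, 1.41-fold and 1.32-fold. Tpcn1, a relative of Tpcn2, rose by 0.41. Without the arrays with muscle genes 3 of the 11 rose. Of 25 lysosomal enzymes and membrane proteins, 22 rose and 0 fell (1 lower at an unadjusted p of 0.05), with a median of 0.56. In this list Cd68 was also counted among the macrophage genes and Ctsk among the osteoclast genes. The cathepsin genes Ctsk and Ctss rose 5.93-fold and 3.77-fold, the membrane protein gene Cd68 3.66-fold, the acid lipase gene Lipa 2.84-fold, the protease gene Lgmn 2.68-fold and the cathepsin gene Ctsz 1.82-fold. Of 15 genes of the mitochondrial ATP synthase, the related rotary enzyme that makes ATP, 0 rose (1 higher at an unadjusted p of 0.05) and 3 fell, with a median of -0.15, a count that ran from 0 without the arrays with muscle genes to 6 with arrays centred. Those that fell were Atp5d (-0.61), Atp5k (-0.35) and Atp5b (-0.17), with limma adjusted p from 0.00644 to 0.0157. Whether these lists differ from the pump genes was not tested.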

How the data were processed

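Per the labels' protocols, periprostatic fat RNA of 9 mice was hybridised to Affymetrix Mouse Gene 2.0 ST arrays, 1 mouse per array. The deposited values are log2 expression per probe set; RMA, limma and R 3.5.0 appear in the submitters' processing notes, which give them no role, and the sources used here name no row filter. Of 33793 rows, 23521 had 1 gene symbol, 1814 several and 8458 none in the probe table. Diet was fitted with limma 3.58.1 (lmFit, eBayes) in R 4.3.3 over all 22180 genes, with Benjamini-Hochberg adjustment at 0.05. Isoform ratios outside the members used scipy 1.17.1. The procedure was tested on simulated data. A planned comparison of proteins was not run, since no protein sequence was used here. RefSeq tables of GRCm38.p6 gave promoters.

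Members and lists were chosen with earlier results of these data known. The naming rule took all 10 members, the other subunits, list genes past the threshold (at most 6 by p) and the 5 nearest profiles; Rragd, osteoclast and other marker genes were named after their values were seen. Mouse numbers recur in both diets, and nothing says that they pair mice. The number of arrays limits the precision. Alternatives were other scalings, all probes averaged, dim genes dropped, weighted arrays, a trended variance, a block on mouse number, every row tested, and single mice left out; the same refits of the gene lists were added after the data were seen.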

Additional observations from a re-analysis of the deposited data

Results flagged for a closer look

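In high fat mouse 4 the log2 ratio of Atp6v1g1 to Atp6v1g2 was 1.58, while the other 4 high fat mice lay between 1.74 and 1.80, a gap large for the range of the group. It was the only such gap in 70 groups of mice looked at, where chance would give about 3.5.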

How the results depend on the processing

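In 19 alternative fits, Atp6v0d2, Atp6v0a1, Atp6v1a, Atp6v1b2, Atp6v0e2 and Tcirg1 kept their direction and stayed past the threshold. The count of pump genes that were higher, 6, ran from 4 to 6, and from 5 to 6 with 1 mouse left out; that of lower ones stayed at 1. Other subunits past the threshold, 4 higher and 1 lower, were 2 higher with quantile normalization repeated, 2 with arrays centred, 2 without high fat mice 1 and 2 and 1 without the 3 arrays with muscle genes; with 1 mouse left out they were 2 to 3 higher and 0 to 1 lower. With dim genes left out, 7 of them were tested and 0 were lower in limma (0 at an unadjusted p of 0.05). Atp6v1c2, the lower one, was itself left out as dim, so that 0 is no change in its result. Without high fat mice 1 and 2 none (0) of the other subunits was lower (1 unadjusted). With the mouse number as a block, in which high fat mouse 5 drops out, 0 other subunits were lower (1 unadjusted), 3 were higher, and 2421 and 1615 of all genes passed. Deviations of same-numbered mice correlated at 0.05 to 0.13, and 3 of 8 mice correlated best with their own number. Of all genes, 1716 were higher without high fat mice 1 and 2; without the muscle arrays 1223 were higher and 947 lower; with centring 3056 were lower. Causes were not tested. Both fits without several arrays were chosen after the data had been seen. Dim isoforms are limited by unknown background.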
